A study of Brassica rapa subsp. pekinensis with 6 samples.

Results

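Glucosinolates are sulfur-rich defence compounds of the cabbage family, and 8 of the 35421 genes read in buds of Chinese cabbage, a subspecies of Brassica rapa, were examined as the genes of the cytochrome P450 enzymes at the entry of their synthesis. The genes were chosen by identifier, with earlier results of these data known, 3 for the aliphatic branch and 5 for the indolic branch. The enzyme names came with that choice. The deposited tables give identifiers without names, and none of the 8 matched a RefSeq gene table of the species (assembly CAAS_Brap_v3.01), so the names could not be checked here. RNA was taken from developing buds at full bloom of the male sterile mutant msm (3 libraries, numbered 1, 2 and 3) and of its wild type FT (3 libraries, numbered 1, 2 and 4). The labels give genotype, tissue and stage only: they do not say which locus or allele makes msm sterile, nor whether each library is a plant of its own. The p-values therefore cover the library-to-library spread alone, which could be technical. Bud tissue markers could not be looked up, for want of names.

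In the related species Arabidopsis thaliana, a CYP79 enzyme turns an amino acid into an aldoxime, and a CYP83 enzyme then oxidises the aldoxime, which commits it to the glucosinolate core. CYP79F1 takes chain-elongated methionine derivatives and CYP83A1 the aldoximes made from them, which leads to aliphatic glucosinolates. CYP79B2 and CYP79B3 take tryptophan and give indole-3-acetaldoxime, CYP83B1 takes that aldoxime to the indolic glucosinolates, and the same aldoxime is also a precursor of camalexin and can feed into auxin. Brassica rapa carries several copies of many genes that are single in Arabidopsis, and here CYP83A1 is represented by 2 genes and CYP79B2 by 3.

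The 4 indolic genes with enough reads to be tested were higher in msm, by 2.33-fold to 3.96-fold, and none of the 3 aliphatic genes was called. Calls needed a 2-fold change or more and, in the quasi-likelihood test of edgeR on TMM-scaled reads, a p under 0.05 after Benjamini-Hochberg adjustment. By this rule 4 of the 8 genes rose and none fell; of all 29104 genes tested, 4.64% were called higher and 12.5% called lower. The fifth indolic gene was read too rarely to be tested. The median log2 fold change was 1.55 over the 4 tested indolic genes and 0.61 over the 3 aliphatic genes, against 0.005 over all tested genes. Bra017871, Bra030246 and Bra026058 had under 10 reads in at least 1 wild-type library and passed the expression filter through their msm libraries. The count of called genes and these medians therefore describe the tested genes and support nothing. Of the called genes, only Bra034941 and Bra011821 had 10 reads or more in each library. In bulk buds, a changed share of a cell type and a changed amount of RNA per cell cannot be told apart.

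The libraries held on average 25534727 uniquely assigned reads in msm and 25156752 in wild type. Levels are the authors' RPKM (reads scaled to coding length and to the library total), and fold changes are msm over wild type. RPKM carries total-count scaling, under which the median log2 fold change of all tested genes was 0.22 and not 0.005. Levels are given as deposited, and changes are given with TMM, which centres the genes. The sign of every fitted change below was positive under TMM, total-count, RLE and upper-quartile scaling.

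CYP83B1 (Bra034941, coding length 1500 bases), the CYP83 of the indolic branch, had the most reads behind a called change. Its level was 16.3, 17.1 and 15.5 RPKM in msm libraries 1, 2 and 3, against 5.62, 6.33 and 6.14 RPKM in wild-type libraries 1, 2 and 4. All msm libraries lay well above all wild-type libraries, and the spread within each group was small. The means were 16.3 ± 0.756 RPKM in msm and 6.03 ± 0.368 RPKM in wild type (SD, n = 3 each), from 1873 reads in msm and 682 in wild type. The fitted log2 fold change was 1.22 with a standard error of 0.09 (adjusted p = 1.33e-12, edgeR), a 2.33-fold rise with a 95% interval of 2.04 to 2.65. Of all tested genes, 96.6% had a smaller log2 fold change.

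CYP79B2, which opens the indolic branch, is represented by Bra011821, Bra017871 and Bra010644, and most of its reads fell on Bra011821 (1554 bases). Bra011821 had 2.48, 2.75 and 2.32 RPKM in msm libraries 1, 2 and 3, against 0.608, 0.642 and 0.386 RPKM in wild-type libraries 1, 2 and 4. The lowest msm library was thus well above the highest wild-type library. Its fitted change was 3.96-fold with a 95% interval of 2.84 to 5.5 (log2 fold change 1.98, standard error 0.23, adjusted p = 1.49e-08, edgeR).

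Bra017871 (1626 bases) was weaker and noisier. It had 25, 20 and 10 reads in msm libraries 1, 2 and 3, against 9, 6 and 4 reads in wild-type libraries 1, 2 and 4, which corresponds to 0.44 ± 0.181 RPKM in msm and 0.154 ± 0.0601 RPKM in wild type (SD, n = 3 each). In deposited RPKM the groups did not overlap, but on the TMM scale msm library 3 (0.228) fell below wild-type library 1 (0.236). It was called higher at 2.43-fold with a wide 95% interval of 1.23 to 4.77 (adjusted p = 0.0233, edgeR). The call was lost in DESeq2 (adjusted p = 0.0805) and without any one of wild-type libraries 2 and 4 and msm libraries 1 and 2, with adjusted p in edgeR between 0.0597 and 0.127.

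Bra010644 (1557 bases) was close to the detection limit in both groups. It had 4, 5 and 0 reads in msm libraries 1, 2 and 3, against 3, 3 and 0 reads in wild-type libraries 1, 2 and 4. The sum of 9 reads in msm has an exact Poisson 95% interval of 4.12 to 17.1 reads, and the sum of 6 reads in wild type one of 2.2 to 13.1 reads. These overlap and, like all such limits here, cover counting error only. A library without a read still allows up to 3 counts, or 0.0771 RPKM in each of msm library 3 and wild-type library 4. A difference between the groups was not detectable at this depth, and the gene did not pass the expression filter.

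CYP79B3 (Bra030246, 1632 bases), the other enzyme that makes indole-3-acetaldoxime, was also called higher in msm. Its reads were 8, 6 and 18 in wild-type libraries 1, 2 and 4. The gene thus passed the expression filter through msm, and its call supports nothing further. It had 0.916, 1.15 and 1.15 RPKM in msm libraries 1, 2 and 3, against 0.193, 0.147 and 0.441 RPKM in wild-type libraries 1, 2 and 4. The groups did not overlap, although wild-type library 4 lay above the other wild-type libraries by more than they lay from each other. The fitted rise was 3.52-fold with a 95% interval of 2.13 to 5.81 (log2 fold change 1.82, standard error 0.35, adjusted p = 6.24e-05, edgeR). Without wild-type library 4 the log2 fold change was 2.42 (adjusted p = 1.42e-05), and without wild-type library 2 it was 1.53 (adjusted p = 0.00134).

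**Figure D1:**
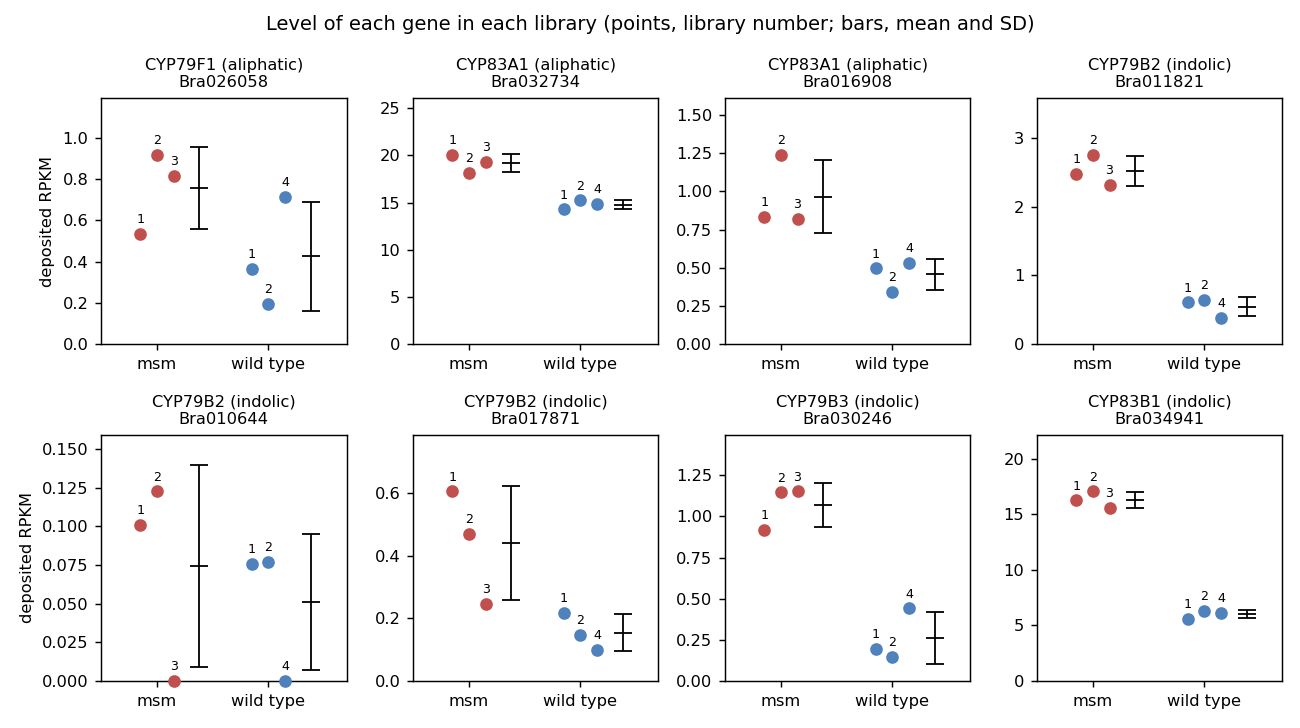
Deposited RPKM of each of the 8 genes in each library, msm left and wild type right, with a linear axis from 0 in each panel; points carry the library number and the bars beside them give mean and SD (n = 3). CYP83B1 stands at 15.5 to 17.1 RPKM in msm and 5.62 to 6.33 RPKM in wild type, whereas CYP79F1 and Bra010644 overlap between the groups.

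CYP83A1, the CYP83 of the aliphatic branch, was carried almost wholly by Bra032734 (1506 bases), the most strongly expressed of the 8 genes. Bra032734 had 20.1, 18.1 and 19.3 RPKM in msm libraries 1, 2 and 3, against 14.3, 15.2 and 14.8 RPKM in wild-type libraries 1, 2 and 4. The groups did not overlap, also on the TMM scale, where the means were 17.8 ± 0.811 in msm and 15.9 ± 0.474 in wild type (SD, n = 3 each). The fitted change was 1.12-fold with a 95% interval of 0.999 to 1.25, and it did not pass the test (adjusted p = 0.0859, edgeR). The interval ends well below the 2-fold of the call rule. Under total-count scaling the log2 fold change was 0.37 (adjusted p = 0.000128), which is 0.15 above the median of all genes on that scale.

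The second CYP83A1 gene, Bra016908 (1509 bases), was expressed at a small fraction of the first. It had 0.834, 1.24 and 0.822 RPKM in msm libraries 1, 2 and 3, against 0.496, 0.344 and 0.53 RPKM in wild-type libraries 1, 2 and 4. The groups did not overlap, with msm library 2 highest and wild-type library 2 lowest. The fitted change of 1.82-fold (95% interval 1.16 to 2.85) had an adjusted p of 0.0214 in edgeR but stayed under 2-fold, so it was not called; under total-count scaling it reached 2-fold, at a log2 fold change of 1.08. Its adjusted p was 0.145 without msm library 2 and 0.106 without wild-type library 2. On adjusted p alone, 26.8% of all tested genes were higher in msm.

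CYP79F1 (Bra026058, 1623 bases), which opens the aliphatic branch, varied more within the wild type than within msm. It had 22, 39 and 33 reads in msm libraries 1, 2 and 3, against 15, 8 and 29 reads in wild-type libraries 1, 2 and 4. Wild-type library 4 lay above msm library 1 in RPKM (0.715 against 0.533), so that the groups overlapped. The means were 0.755 ± 0.199 RPKM in msm and 0.425 ± 0.265 RPKM in wild type (SD, n = 3 each), and the fitted 1.53-fold change had a 95% interval of 0.903 to 2.58 (adjusted p = 0.162, edgeR). This result depends on single wild-type libraries. Without wild-type library 4 the log2 fold change was 1.20 and the gene was called (adjusted p = 0.0197, edgeR). Without wild-type library 2 it was 0.26 (adjusted p = 0.586, edgeR).

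**Figure D2:**
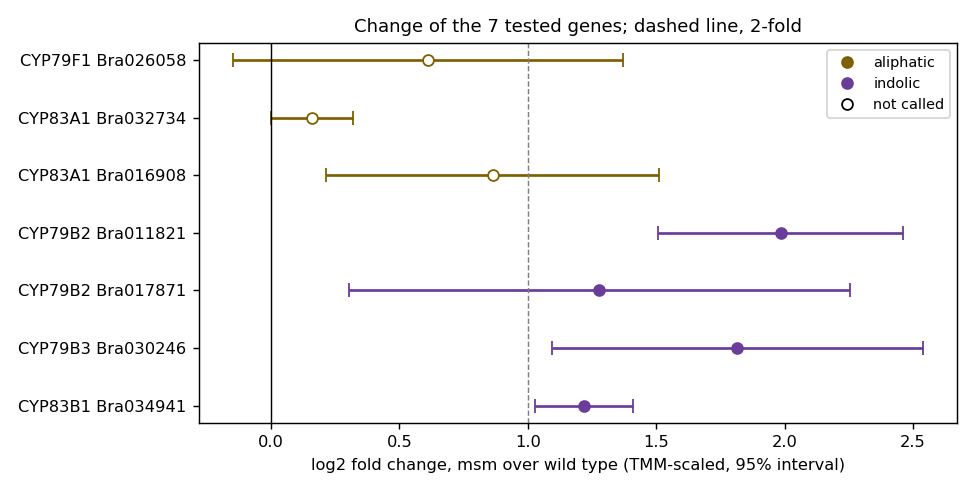
Fitted log2 fold change, msm over wild type, with its 95% interval (edgeR, TMM) for the 7 tested genes, aliphatic genes above indolic ones; filled points were called and open points were not. The indolic genes lie between 1.22 and 1.98, the aliphatic ones between 0.16 and 0.86, and the intervals of CYP79F1 and of the weaker CYP79B2 copy Bra017871 are wide.

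Across the 8 genes, 6 did not overlap between the groups in deposited RPKM, with msm higher, as did 47.5% of all tested genes. With TMM scaling 5 did so, as did 29.3% of all tested genes. Non-overlap by itself was therefore common, also in genes with small changes such as Bra032734.

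Whether 2 genes changed by different amounts was tested on their ratio within each library, for which scaling between libraries cancels. The 6 pairs among the 4 genes that reached 10 reads in each of the 6 libraries were compared, with an exact two-sided permutation test whose smallest p with 3 libraries a group is 0.1. The log2 ratio of CYP83B1 (Bra034941) over CYP83A1 (Bra032734) was -0.23 ± 0.126 in msm and -1.30 ± 0.0438 in wild type (SD, n = 3 each). The difference of 1.06 was larger than the spread and the groups did not overlap (exact permutation p = 0.1, 0.12 after Benjamini-Hochberg adjustment over the 6 pairs). CYP79B2 (Bra011821) changed by 1.86 more than Bra032734 on the log2 scale and by 0.80 more than CYP83B1, again without overlap and at the same exact permutation p of 0.1.

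The fitted log2 fold change was 0.16 for the CYP83A1 copy Bra032734 and 0.86 for Bra016908. The mean levels of these 2 copies lay closer to each other in msm than in wild type. The log2 ratio of Bra016908 over Bra032734 was -4.34 ± 0.405 in msm and -5.04 ± 0.372 in wild type (SD, n = 3 each), a difference of 0.70 without overlap (exact permutation p = 0.1). With 1 library left out, that difference ran from 0.47 to 0.83. For CYP83B1 over Bra016908 the ratios overlapped (difference 0.36, exact permutation p = 0.2). None of the 6 pairs could pass 0.05 in this design, so the test cannot decide which genes changed by different amounts.

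At the CYP83 step and in the sum of each branch, the indolic level came close to the aliphatic one in msm. At the CYP79 step the indolic sum lay above the aliphatic level in both groups. CYP79F1 had 0.755 ± 0.199 RPKM in msm and 0.425 ± 0.265 RPKM in wild type (SD, n = 3 each). CYP83A1 copies together had 20.1 ± 0.758 RPKM in msm and 15.2 ± 0.415 RPKM in wild type, and CYP79B2 with CYP79B3 had 4.1 ± 0.388 RPKM in msm and 1.01 ± 0.0843 RPKM in wild type (SD, n = 3 each). The level of CYP83A1 was 1.28, 1.14 and 1.29 times that of CYP83B1 in msm libraries 1, 2 and 3, against 2.63, 2.46 and 2.5 times in wild-type libraries 1, 2 and 4. The indolic genes took 47.9% to 51.5% of the summed RPKM of all 8 genes in msm, against 30.5% to 31.8% in wild type. These sums follow the strongest genes and were not tested.

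**Figure D3:**
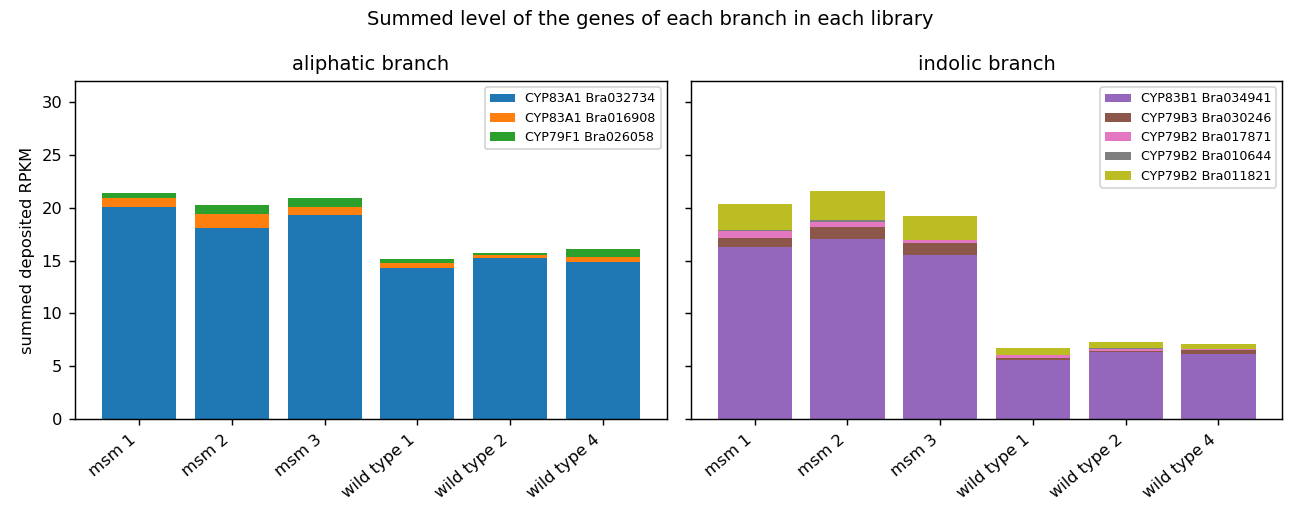
Summed deposited RPKM of the aliphatic genes (left) and the indolic genes (right) in each library, msm libraries before wild-type libraries, stacked by gene on 1 linear axis. The aliphatic stacks reach 20.3 to 21.4 RPKM in msm and 15.1 to 16.1 RPKM in wild type, the indolic ones 19.3 to 21.6 RPKM in msm and 6.71 to 7.34 RPKM in wild type.

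In both branches the summed CYP79 level lay below the summed CYP83 level in every library. CYP83B1 stood at 3.8 to 4.19 times the summed CYP79B2 and CYP79B3 level in msm libraries, against 5.13 to 6.63 times in wild-type libraries. CYP83A1 stood at 21.1 to 39.2 times CYP79F1 in msm and 21.5 to 79.2 times in wild type, and these ranges overlap. Within CYP79B2, Bra011821 took 83.5% ± 6.36 of the summed RPKM in msm and 73.7% ± 6.14 in wild type (SD, n = 3 each), with ranges that overlap. Within CYP83A1, Bra032734 took 95.2% ± 1.36 in msm and 97% ± 0.694 in wild type (SD, n = 3 each).

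The order of the mean levels in msm was Bra032734 (CYP83A1), Bra034941 (CYP83B1), Bra011821 (CYP79B2), Bra030246 (CYP79B3), Bra016908 (CYP83A1), Bra026058 (CYP79F1), Bra017871 and Bra010644 (both CYP79B2). The levels of the first 3 did not overlap with those of any other of the 8 genes in msm, nor did Bra010644, whereas each neighbouring pair from CYP79B3 to Bra017871 overlapped. In wild type the order below the leading pair was Bra011821, Bra016908, Bra026058, Bra030246, Bra017871 and Bra010644, and all neighbours there overlapped except the last pair. Among all genes with a read in the group, 69.4% lay below Bra032734 in msm and 65.5% in wild type, while for CYP83B1 the values were 65.5% in msm and 46.2% in wild type. For Bra011821 they were 33.4% in msm and 17.8% in wild type.

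The authors also deposited the percentage of the coding length that reads covered. CYP83A1 (Bra032734) was covered by 99.7% to 99.8% in the libraries of both groups, and CYP83B1 by 99.7% in each msm library and by 98.9% to 99% in wild type. CYP79B3 was covered by 84.2% to 95.6% in msm and by 25% to 61.2% in wild type, and Bra011821 by 96.3% to 97.5% in msm and by 60.6% to 87.3% in wild type. Coverage was low where reads were few, as in Bra010644, at 31.8% or less. Reads of the strong genes thus lay along nearly the whole coding length . Only uniquely assigned reads were counted, so reads shared by near-identical copies may have been lost or misplaced, and the split between copies of CYP79B2 and of CYP83A1 is uncertain to that extent.

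**Figure D4:**
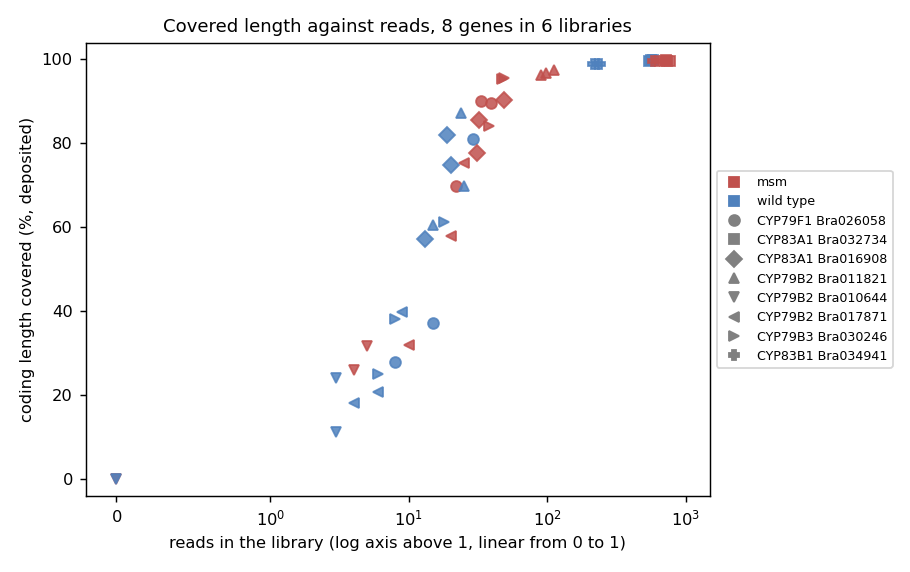
Percentage of coding length covered against reads for the 8 genes in the 6 libraries (red msm, blue wild type, symbols for genes), with a log axis above 1 read. Coverage passes 96% in the msm libraries of Bra011821, with 90 to 112 reads, and lies at 31.8% or less in Bra010644, with 5 reads or fewer.

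The genes most like the leading gene of each branch were sought by the root mean square difference of log2 TMM-scaled CPM profiles, each centred on its own mean over the 6 libraries, among 26662 other genes with a mean of at least 1 RPKM. For CYP83B1 it was Bra036349, at a difference of 0.0427, with 16.9 ± 1.11 RPKM in msm and 6.52 ± 0.427 RPKM in wild type (SD, n = 3 each). For Bra032734 it was Bra022389, at 0.014, with 20.5 ± 0.752 RPKM in msm and 15.9 ± 0.584 RPKM in wild type (SD, n = 3 each). A difference under 0.1 was shared by 40 genes with CYP83B1 and by 2984 genes with Bra032734, so the nearest gene is a weak distinction for the second. No name was found for either gene.

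**Figure D5:**
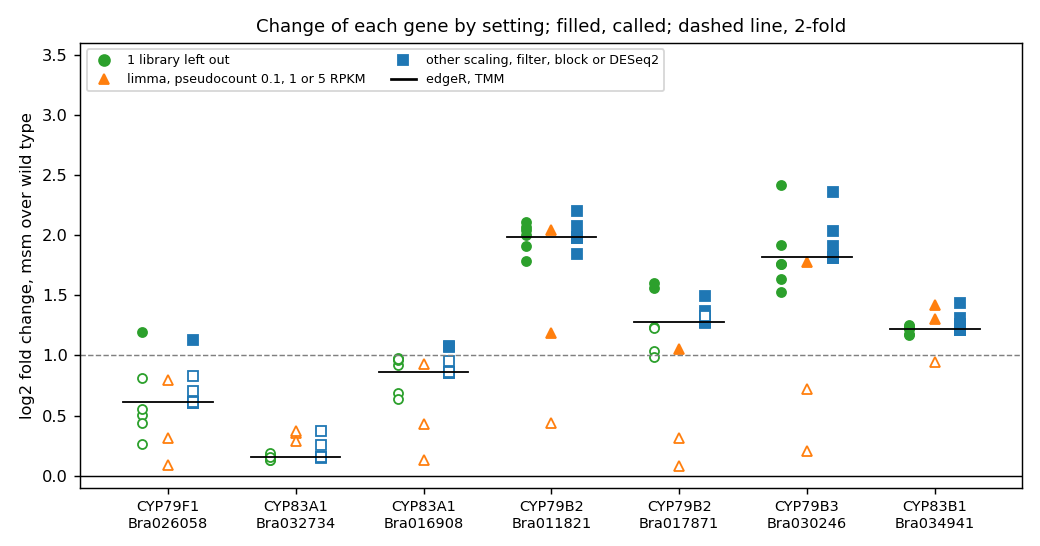
Log2 fold change, msm over wild type, of the 7 tested genes in edgeR with TMM (black line) and under alternative settings (green, 1 library left out; orange, limma with a pseudocount of 0.1, 1 or 5 RPKM; blue, other scaling, filter, replicate block or DESeq2); filled symbols were called and the dashed line marks 2-fold. CYP83B1 keeps between 1.17 and 1.25 with a library left out, CYP79F1 spreads from 0.26 to 1.20, and limma with 5 RPKM gives each gene except Bra032734 its lowest value.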

How the data were processed

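Reads per gene were measured in 6 bud libraries of Chinese cabbage, 3 of msm and 3 of wild type, grouped by title. Per the file headers, the authors deposited a table per library with counts of uniquely assigned reads, gene lengths, covered percentages and RPKM. The counts summed to the total in each header, and RPKM followed from the counts, the length and that total. All lengths are multiples of 3, so they are coding lengths. Coverage passed 100 in 14 values, none of them of the 8 genes. The submitters' processing notes name DESeq, with no version or role; for the aligner, build, annotation and strand use: not given in the sources used here. A gene without a row in a library was given 0 reads.

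The members and settings were chosen with earlier results of these data known. The named genes are the 8 members and, for the leading gene of each branch, the gene with the most similar profile. Counts were tested with edgeR 4.0.16 (R 4.3.3): quasi-likelihood, TMM, default filter, robust fit, adjusted over all tested genes. Standard errors are the log2 fold change over the square root of F. Copy ratios were tested with SciPy 1.17.1. Alternatives were DESeq2 1.42.0, other scalings, filters and thresholds, a replicate block, each library left out, and limma 3.58.1 on log2 values of RPKM plus a pseudocount. The fits were tested on simulated data in which all genes had the same small spread beyond counting error. That check does not cover the noisier genes with few reads.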

Additional observations from a re-analysis of the deposited data

How the results depend on the processing

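No gene of the 8 changed direction in any setting that gave it a value beside its TMM result. The calls of Bra034941, Bra011821 and Bra030246 were lost in limma with a pseudocount of 5 RPKM (log2 differences 0.95, 0.44 and 0.21). That of Bra030246 was also lost in limma with 1 RPKM (0.72). In all other settings these calls held. A pseudocount shrinks folds by construction, most in genes with low levels. Bra017871 was not called in DESeq2 (1.29), in limma with 1 or 5 RPKM (0.31 and 0.077), in the edgeR test against a 2-fold change (1.28), nor without any one of 4 of the libraries, with 0.99 to 1.60 over all leave-outs. Bra016908 was called under total-count scaling (1.08) and with no fold threshold (0.86). Numbers 1 and 2 occur in both groups. Across genes, deviations of same-numbered libraries correlated at -0.0718 and 0.0662, others at -0.125 to 0.133, so pairing is undecided. In the replicate block, msm library 3 and wild-type library 4 have a number of their own, so the group difference comes from libraries 1 and 2. Wild-type library 4, without which CYP79F1 was called, thus does not enter that difference. With this block, Bra026058 (1.13) and Bra016908 (1.07) were called, Bra017871 (1.33) was not, and the other calls among the tested genes stayed. With 1 library left out, log2 fold changes ran from 0.26 to 1.20 for Bra026058, 0.63 to 0.98 for Bra016908, 1.78 to 2.11 for Bra011821 and 1.53 to 2.42 for Bra030246. The ratio of CYP83B1 over Bra032734 kept its sign and ran from 0.99 to 1.10. Over all genes, 1351 were called higher and 3641 lower, against 2030 higher with total counts, 744 higher in the test against 2-fold, 418 and 1418 in limma with 5 RPKM, and 7802 and 8764 with no fold threshold; with a library left out, 1329 to 1424 and 3695 to 3838. With no expression filter, Bra010644 had a log2 fold change of 0.32 (adjusted p = 0.829, edgeR). Over all alternatives the adjusted p ran from 0.00703 to 0.728 for Bra017871; for Bra016908 and Bra026058 it ran from 0.00373 and 0.0197 up to 1 in the test against a 2-fold change. Bra010644, Bra017871, Bra030246, Bra026058 and Bra016908 rest on few reads, with 6, 19, 32, 52 and 52 reads over the wild-type libraries. The order of the fitted changes was not stable: that of Bra030246 was above that of Bra011821 with the replicate block (2.36 against 1.84) and without wild-type library 4 (2.42 against 1.78), and that of Bra034941 was above it in limma with 1 or 5 RPKM (0.95 against 0.44 with 5 RPKM).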
